A study of Mus musculus with 10 samples.

Results

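The genes that copy DNA were followed in tumors of B16F10, a mouse melanoma cell line, that overexpressed Ly86 or carried a vector in its place. The 37 members were picked by function, by their symbols, from the 27919 genes in the deposited table, a rule that uses no measured value. The list was, however, drawn up with earlier results of these data known. All 37 were in the table, and all 37 passed the filter on low values (a mean of at least 1 TPM over the tumors), as did 14556 genes in all. TPM stands for transcripts per 1000000 and is scaled by transcript length, so levels of different genes can be set side by side. The Ly86 group held 4 tumors in 5 libraries and the Vector group 3 tumors in 5 libraries. Ly86 tumor 1, Vector tumor 1 and Vector tumor 2 were each sequenced as 2 pieces, whose log2 values were averaged so that a tumor counted once. The tumors were snap-frozen, and mice of both groups had received 4 rounds of treatment with anti-PD-1 and anti-CTLA4, antibodies that release T cells from inhibition, so no group was without this treatment. The strain and age of the mice, the promoter that drives Ly86 and whether the lines were clones are not given in the sources used here. The tumors are numbered without a statement that each grew in its own mouse, so errors and p-values cover only how far these tumors differed, and some of that may be technical.

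Ly86, whose protein MD-1 pairs with the receptor RP105, was read at 49.1 to 81.9 TPM in the Ly86 libraries. Vector libraries had 6.24 to 30.3 TPM, apart from piece 1 of Vector tumor 2, at 80.9 TPM. The difference was 1.69 (SE 0.40) on the log2(TPM + 1) scale, with a limma adjusted p of 0.437. The sources used here do not say whether reads of the introduced copy count toward this gene. Piece 1 of Vector tumor 2 stood apart from the other libraries. Its 12 macrophage and monocyte markers summed to 5230 TPM, against 374 to 1599 TPM in the other Vector libraries and 1858 to 3785 TPM in Ly86 libraries. Its 10 pigment cell markers summed to 10427 TPM, against 14609 to 21480 TPM in the other 9 libraries. The tumors are labelled melanoma, and the pigment cell genes Mlana and Sox10 were at 833 TPM and 187 TPM or more in every library. The members' counts are given with and without Vector tumor 2 below, and so are the differences of some of the members.

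Before a cell divides, the origin recognition complex with CDC6 and CDT1 loads the MCM2-7 helicase onto DNA, and CDC45 and the GINS complex then turn it into an active engine that opens the double helix. Polymerase alpha with primase starts each new strand, polymerases epsilon and delta extend it, and the sliding clamp PCNA, placed by the RFC loader, holds polymerases on the template. Transcription of many of these genes is driven by E2F factors as cells enter S phase, so their mRNAs mark dividing cells, whether melanoma cells or the leukocytes and fibroblasts between them. In bulk tumor RNA, fewer dividing cells and less of these mRNAs per cell cannot be told apart.

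All 37 members averaged lower in the Ly86 tumors than in the Vector tumors, by 0.10 to 0.56 on the log2(TPM + 1) scale, and none passed the test over all genes. A value below 0 was found for 56.2% of all 14556 tested genes. The members' median difference was -0.33, against -0.037 over all tested genes. Averaged over the 37 genes, the level was 5.69 ± 0.088 log2(TPM + 1) (SD, n = 4) with Ly86 and 6.02 ± 0.24 (SD, n = 3) with the vector. By tumor this mean was 5.70, 5.57, 5.73 and 5.78 in Ly86 tumors 1 to 4, and 6.20, 5.75 and 6.11 in Vector tumors 1 to 3. Vector tumors 1 and 3 therefore lay above every Ly86 tumor, and Vector tumor 2 lay among them, below Ly86 tumor 4.

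In limma, with Benjamini-Hochberg adjustment over all tested genes, 0 of the 37 members passed 0.05, as did 0 of 14556 genes, or 0%. At an unadjusted p under 0.05, 18 members were lower and 0 higher, where 4.97% of all tested genes were lower at that level. For 12 members every Ly86 tumor lay below every Vector tumor, against 5.75% of all tested genes, and no member showed the reverse. With every library taken singly, 4 members (Topbp1, Cdt1, Rpa2 and Pold1) had all 5 Ly86 libraries below all 5 Vector libraries, against 0.9% of tested genes. Among the 9905 tested genes whose mean level lay within the members' range, 62.1% were lower and the median difference was -0.062. The plot of differences by gene shows the size and interval for each member.

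**Figure D1:**
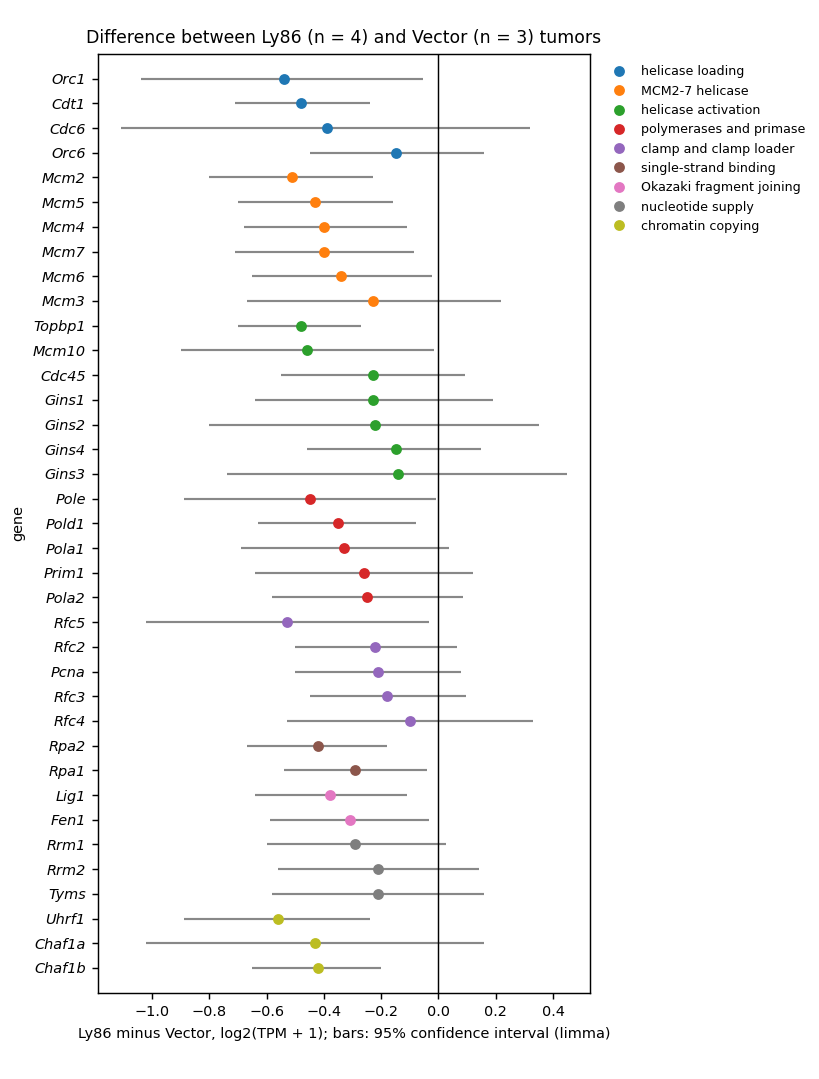
Ly86 minus Vector difference of each member on the log2(TPM + 1) scale (x axis), by gene (y axis) and colored by role; points are limma estimates over 4 Ly86 and 3 Vector tumors, bars are 95% confidence intervals. All 37 points lie below 0, between -0.56 for Uhrf1 and -0.10 for Rfc4, and 18 intervals do not reach 0.

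Single tumors moved these counts. Without Vector tumor 2, 32 members were lower at an unadjusted p under 0.05 and 33 did not overlap, where 9.23% and 19.2% of all tested genes did so. The differences then ran from -0.82 for Cdc6 to -0.27 for Rfc4. A count with no overlap can only stay or rise when a tumor is left out. Without Vector tumor 1 the first count was 9 (2.65% of all tested genes) and without Vector tumor 3 it was 7 (1.72%). With only piece 1 of each divided tumor it was 6 (1.32%), and 4 members did not overlap (1.95% of all tested genes). Leaving out piece 1 of Vector tumor 2 gave 21 members with no overlap, beside 10.4% of all tested genes, and a median of -0.38. Using only piece 2 of each divided tumor gave 20 members with no overlap, beside 12.5% of all tested genes, so these shares over all genes moved up along with the members' counts. The median stayed between -0.44 and -0.24 over these and the other alternatives. With limma's array weights 27 members passed an adjusted p of 0.05, in a fit where 1832 genes passed and where Vector tumor 3 had a weight of 22.8 and every other tumor a weight under 1. The estimation of these weights stopped before it converged.

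Compared tumor by tumor, Ly86 tumors 1, 2 and 4 were below Vector tumor 1 for all 37 members and Ly86 tumor 3 for 36. Against Vector tumor 3, 34 to 37 members were lower. Set against Vector tumor 2, 25 members were lower in Ly86 tumor 1, 32 in tumor 2, 19 in tumor 3 and 18 in tumor 4, so that Ly86 tumors 3 and 4 stood level with it. Ly86 tumor 2 had the lowest value of all 7 tumors for 21 members. Vector tumor 1 had the highest for 24 members and Vector tumor 3 for 12. These counts were made for the members only, so no share over all tested genes stands beside them. The mean over all tested genes was 4.27, 4.16, 3.98 and 4.10 log2(TPM + 1) in Ly86 tumors 1 to 4. In Vector tumors 1 to 3 it was 4.01, 4.09 and 4.17.

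**Figure D2:**
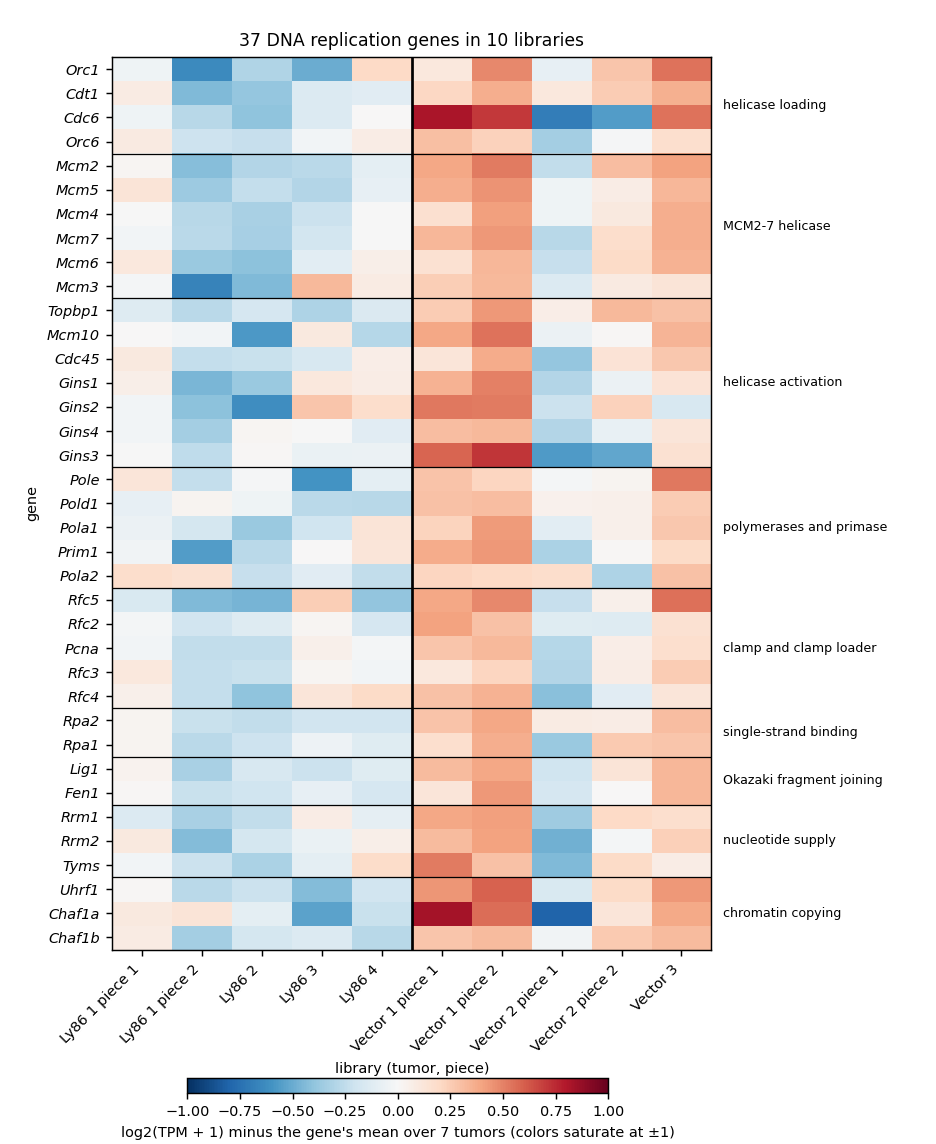
Each cell gives a member's log2(TPM + 1) in 1 library (x axis, tumor and piece) minus that gene's mean over the 7 tumors; genes (y axis) are grouped by role, and a black line parts Ly86 from Vector libraries. Both pieces of Vector tumor 1 and the library of Vector tumor 3 are mostly red (higher). Piece 1 of Vector tumor 2 is mostly blue, like piece 2 of Ly86 tumor 1 and the library of Ly86 tumor 2. Other Ly86 libraries are more mixed, with a members' mean of up to 5.85 in piece 1 of Ly86 tumor 1.

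Topbp1 had the smallest p of all members and stood at rank 24 of 14556 tested genes. Its protein is a scaffold that helps load CDC45 and GINS at origins and activates the checkpoint kinase ATR. It was at 55.1 and 49.9 TPM in the pieces of Ly86 tumor 1 and at 53.7, 48.5 and 54.5 TPM in Ly86 tumors 2, 3 and 4. Vector values were 72.4 and 82.2 TPM in the pieces of tumor 1, 63.3 and 75.9 TPM in those of tumor 2, and 74.2 TPM in tumor 3. No Ly86 library reached the lowest Vector library, piece 1 of tumor 2. The log2 means were 5.73 ± 0.073 (SD, n = 4) and 6.22 ± 0.078 (SD, n = 3), a difference of -0.48 (SE 0.092, limma adjusted p = 0.409).

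Cdt1, which encodes the partner of CDC6 in loading the helicase, was next. It had 75.1 and 52.1 TPM in the pieces of Ly86 tumor 1, then 54.2, 64.4 and 65.5 TPM in the other Ly86 tumors. The pieces of Vector tumor 1 had 82.1 and 91.6 TPM, those of Vector tumor 2 had 76.6 and 85.0 TPM, and Vector tumor 3 had 90.9 TPM. Here too the groups did not overlap, although piece 1 of Ly86 tumor 1 came close to piece 1 of Vector tumor 2. The difference was -0.48 (SE 0.10, adjusted p = 0.437 in limma). Of the other genes for helicase loading, Orc1, the largest subunit of the origin recognition complex, was the least abundant member, at 3.54 to 7.11 TPM in Ly86 and 5.67 to 9.27 TPM in Vector libraries, with a difference of -0.54 (SE 0.21). Cdc6 differed by -0.39 (SE 0.31), and its Vector tumors ranged from 3.56 in tumor 2 to 4.95 in tumor 1 on the log2 scale, wider than the 3.79 to 4.19 of the Ly86 tumors. Orc6, at -0.15 (SE 0.13), was closest to 0 of these 4 genes.

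The 6 subunits of the MCM2-7 ring averaged 6.69 ± 0.14 log2(TPM + 1) (SD, n = 4) with Ly86 and 7.08 ± 0.20 (SD, n = 3) with the vector. Of the 6, 5 were lower at an unadjusted p under 0.05, where 4.97% of all tested genes were. Mcm2 was the most abundant, with a geometric mean of 192 TPM over the tumors, and had the highest level of the 6 in 9 of 10 libraries. Mcm4 was the least abundant, at 50.8 TPM, in all 10 libraries. Mcm2 was read at 194 and 142 TPM in Ly86 tumor 1 and at 156, 159 and 179 TPM in Ly86 tumors 2 to 4. Vector tumor 1 had 251 and 275 TPM, tumor 2 had 161 and 237 TPM, and tumor 3 had 254 TPM. Only piece 1 of Vector tumor 2 fell within the Ly86 range. The tumor means did not overlap, and the difference was -0.51 (SE 0.12, limma adjusted p = 0.437).

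Mcm5 was at 122 and 86.0 TPM in the pieces of Ly86 tumor 1 and at 94.3, 90.7 and 105 TPM in the remaining Ly86 tumors. Its Vector values were 143 and 152 TPM in tumor 1, 108 and 117 TPM in tumor 2, and 140 TPM in tumor 3. Tumor means did not overlap, at a difference of -0.43 (SE 0.12), though piece 1 of Ly86 tumor 1 exceeded both pieces of Vector tumor 2. Mcm4 had 50.7 and 41.8 TPM in Ly86 tumor 1, 40.3, 43.7 and 50.6 TPM in the others, 56.9 and 67.9 TPM in Vector tumor 1, 49.4 and 54.6 TPM in Vector tumor 2 and 65.7 TPM in Vector tumor 3. Its groups were apart at -0.40 (SE 0.12), by a narrow margin between Ly86 tumor 4 (5.69) and Vector tumor 2 (5.73). Mcm7 had 105 and 88.8 TPM in Ly86 tumor 1, 84.9, 94.1 and 107 TPM in the others, 135 and 145 TPM in Vector tumor 1, 88.4 and 121 TPM in Vector tumor 2 and 138 TPM in Vector tumor 3. For Mcm7 the groups overlapped, since Ly86 tumor 4 (6.75) lay above Vector tumor 2 (6.70), and the difference was -0.40 (SE 0.14), or -0.54 without Vector tumor 2. Mcm6 differed by -0.34 (SE 0.14). Mcm3 differed by -0.23 (SE 0.19), and Ly86 tumor 3, at 7.34, had its highest value of all 7 tumors.

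Of the 7 genes of helicase activation, Topbp1 and Mcm10, 2 in all, were lower at an unadjusted p under 0.05, against 4.97% of all tested genes. Mcm10, which helps assemble the active helicase, differed by -0.46 (SE 0.19), and Cdc45 by -0.23 (SE 0.14). The GINS subunits averaged 0.14 to 0.23 lower, the smallest being Gins3 at -0.14. Gins3 was at 9.41 and 7.75 TPM in Ly86 tumor 1, at 9.54, 8.99 and 9.0 TPM in the others, at 14.6 and 16.1 TPM in Vector tumor 1, at 6.04 and 6.27 TPM in Vector tumor 2 and at 10.6 TPM in Vector tumor 3. The 4 Ly86 tumors were thus nearly alike for Gins3, while Vector tumor 2 lay below and Vector tumors 1 and 3 above them. The interval of its difference ran from -0.74 to 0.45 (adjusted p = 0.886 in limma), and leaving out Vector tumor 1 or 2 gave 0.14 or -0.46. Gins2 had 30.6 and 23.2 TPM in Ly86 tumor 1, 20.0, 38.1 and 35.3 TPM in the others, 45.5 and 45.3 TPM in Vector tumor 1, 26.8 and 36.9 TPM in Vector tumor 2 and 27.9 TPM in Vector tumor 3. It overlapped widely, with a difference of -0.22 and an interval from -0.80 to 0.35, and the difference was 0.0081 with array weights. Within the GINS complex Gins4 was the most abundant gene, at 51.6 TPM, and Gins3 the least, at 9.45 TPM, in all 10 libraries.

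**Figure D3:**
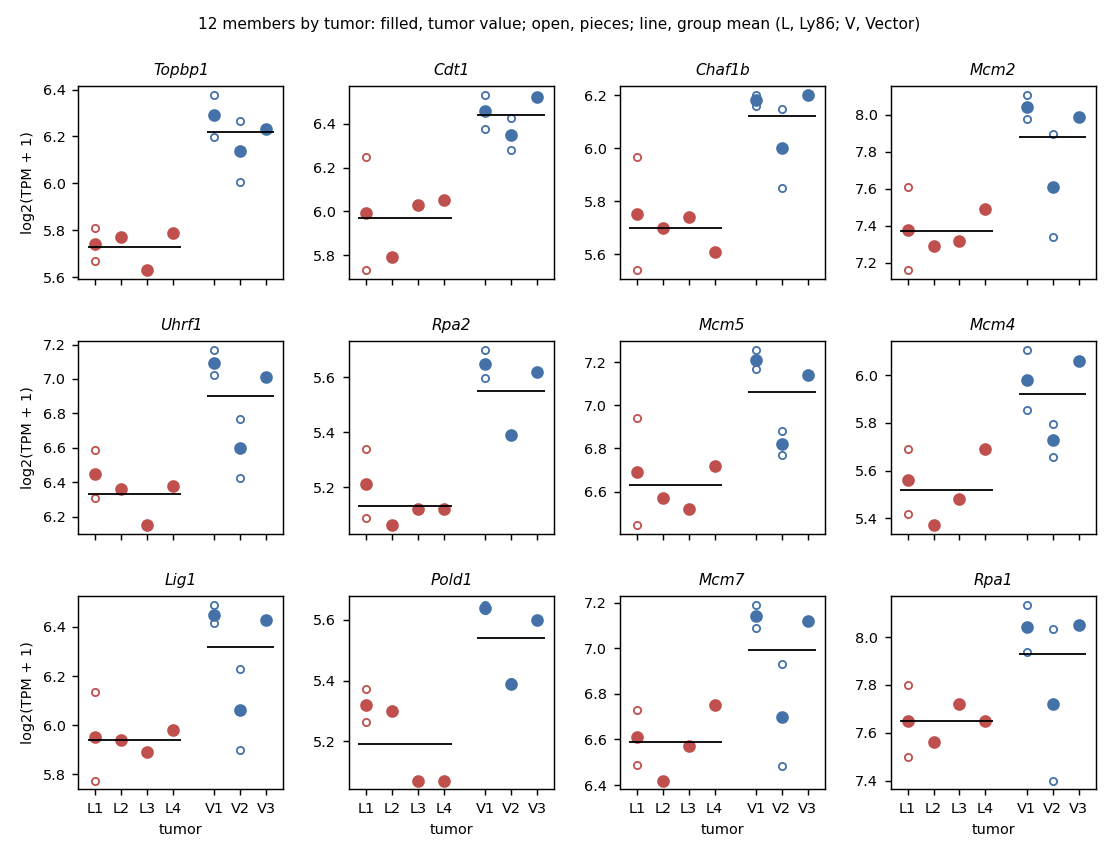
Values of the 12 members with the smallest p by tumor (x axis; L1 to L4, Ly86; V1 to V3, Vector) in log2(TPM + 1) (y axis, which does not start at 0); filled points are tumors, open points are pieces of divided tumors and may lie under the filled ones, and lines are group means. In every panel Vector tumor 2 is the lowest of the 3 Vector tumors, and for Topbp1 it still lies above all Ly86 libraries.

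Of the polymerase genes, Pold1, the catalytic subunit of polymerase delta, separated the groups in all libraries. It was at 37.4 and 40.4 TPM in Ly86 tumor 1, at 38.4, 32.7 and 32.5 TPM in the other Ly86 tumors, at 48.6 and 49.2 TPM in Vector tumor 1, at 40.8 and 41.1 TPM in Vector tumor 2 and at 47.4 TPM in Vector tumor 3. The margin between the highest Ly86 and the lowest Vector library was small, and the difference was -0.35 (SE 0.12, limma adjusted p = 0.437). Pole, the catalytic subunit of polymerase epsilon, differed by -0.45 (SE 0.19), with no overlap of tumors but only a small gap between Ly86 tumor 2 (4.13) and Vector tumor 2 (4.14). Polymerase alpha genes Pola1 and Pola2 differed by -0.33 (SE 0.16) and -0.25 (SE 0.14), and the primase gene Prim1 by -0.26 (SE 0.17), each with overlapping tumors.

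The clamp gene Pcna was the most abundant member in all 10 libraries, with a geometric mean of 378 TPM, 62.4 times that of Orc1. Its difference was -0.21, with an interval from -0.50 to 0.079. The mouse genome also holds copies of Pcna and Tyms that are annotated as pseudogenes and may share reads with them, so those 2 values are less certain. Among the loader genes, of which Rfc2 was the most abundant at 137 TPM, Rfc5 had the largest difference, -0.53 (SE 0.21), with Ly86 tumor 3 (6.11) above Vector tumor 2 (5.78), and stood at -0.72 without the latter. Rfc2 and Rfc3 differed by -0.22 (SE 0.12) and -0.18 (SE 0.12). Rfc4 had the smallest difference of all 37 members. It was at 59.0 and 48.1 TPM in Ly86 tumor 1, at 42.9, 62.2 and 65.1 TPM in the others, at 70.0 and 72.6 TPM in Vector tumor 1, at 42.3 and 52.5 TPM in Vector tumor 2 and at 62.2 TPM in Vector tumor 3. Ly86 tumors 3 and 4 matched or passed Vector tumor 3, and the interval of the difference ran from -0.53 to 0.33 (adjusted p = 0.887 in limma). The sign turned on leaving out Ly86 tumor 2 (0.015) or Vector tumor 1 (0.026).

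RPA, the protein that coats unwound DNA, has a pair of members, Rpa1 and Rpa2. Both were lower at an unadjusted p under 0.05, against 4.97% of all tested genes. Rpa3, the small subunit, was in the list of other origin and fork genes and differed by -0.015 (SE 0.26). Rpa1, the large subunit, had a geometric mean of 217 TPM, 5.62 times the 38.7 TPM of Rpa2. Rpa2 was at 39.5 and 33.0 TPM in Ly86 tumor 1, at 32.4, 33.8 and 33.7 TPM in the others, at 47.4 and 51.0 TPM in Vector tumor 1, at 41.0 and 40.8 TPM in Vector tumor 2 and at 48.2 TPM in Vector tumor 3. No Ly86 library reached a Vector library, and the difference was -0.42 (SE 0.11, limma adjusted p = 0.437). Rpa1 was at 222 and 180 TPM in Ly86 tumor 1, at 188, 210 and 200 TPM in the others, at 244 and 280 TPM in Vector tumor 1, at 168 and 261 TPM in Vector tumor 2 and at 264 TPM in Vector tumor 3. Piece 1 of Vector tumor 2 was the lowest of all 10 libraries for Rpa1, and the difference was -0.29 (SE 0.11, adjusted p = 0.441).

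Lig1, the ligase that seals the fragments of the lagging strand, was at 69.2 and 53.7 TPM in Ly86 tumor 1, at 60.4, 58.2 and 62.2 TPM in the others, at 84.4 and 88.9 TPM in Vector tumor 1, at 58.7 and 74.0 TPM in Vector tumor 2 and at 85.3 TPM in Vector tumor 3. The Ly86 tumors lay close together, from 5.89 to 5.98 on the log2 scale, and below the 6.06 of Vector tumor 2, with a difference of -0.38 (SE 0.12). Fen1, the nuclease that trims those fragments, differed by -0.31 (SE 0.12), also with no overlap of tumors. Genes that supply deoxynucleotides were among the smaller differences. Rrm1 and Rrm2, the subunits of ribonucleotide reductase, differed by -0.29 (SE 0.14) and -0.21 (SE 0.15), and thymidylate synthase, Tyms, by -0.21 (SE 0.16). Rrm2 was the more abundant reductase gene in all 10 libraries, at 240 TPM against 112 TPM for Rrm1.

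Uhrf1, which guides the maintenance methyltransferase to newly copied DNA, had the largest difference of all members. It was at 95.3 and 78.3 TPM in Ly86 tumor 1, at 81.2, 69.8 and 82.4 TPM in the others, at 129 and 143 TPM in Vector tumor 1, at 85.0 and 108 TPM in Vector tumor 2 and at 128 TPM in Vector tumor 3. Piece 1 of Vector tumor 2 again lay within the Ly86 range, while the tumor means were apart, at -0.56 (SE 0.14, limma adjusted p = 0.437). Chaf1b, a subunit of the histone chaperone CAF-1, had 61.5 and 45.5 TPM in Ly86 tumor 1, 51.1, 52.6 and 47.7 TPM in the others, 70.5 and 72.6 TPM in Vector tumor 1, 56.6 and 69.9 TPM in Vector tumor 2 and 72.3 TPM in Vector tumor 3. Its tumors did not overlap, with a difference of -0.42 (SE 0.096). Chaf1a, the large subunit, had a similar difference of -0.43 with a wider error (SE 0.25), since Vector tumor 2 (4.55) lay below 3 of the 4 Ly86 tumors. Without that tumor it was -0.72.

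Promoter sequences are shown for the 3 members with the smallest p, because E2F factors act at promoters of this gene class and the members lay on the same side. RefSeq sequences on GRCm38.p6, an earlier build than the mm39 used for the expression values, were found for 31 of the 37 genes, each from 250 bases before to 50 after a transcription start. An E2F motif was searched on both strands as TTTGGCGC, TTTCGCGC, TTTCCCGC or TTTGCCGC, and the CCAAT box as CCAAT, and matches are in capitals. Topbp1 lies at chr9:103305077-103305376 (plus strand), Cdt1 at chr8:122567765-122568064 (plus strand) and Chaf1b at chr16:93883651-93883950 (plus strand).
Topbp1: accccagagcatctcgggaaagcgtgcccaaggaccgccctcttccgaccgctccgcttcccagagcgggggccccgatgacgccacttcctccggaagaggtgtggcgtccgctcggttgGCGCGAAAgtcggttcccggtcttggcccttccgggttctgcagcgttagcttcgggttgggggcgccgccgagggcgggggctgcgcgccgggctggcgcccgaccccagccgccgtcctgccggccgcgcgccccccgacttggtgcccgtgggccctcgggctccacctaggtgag
Cdt1: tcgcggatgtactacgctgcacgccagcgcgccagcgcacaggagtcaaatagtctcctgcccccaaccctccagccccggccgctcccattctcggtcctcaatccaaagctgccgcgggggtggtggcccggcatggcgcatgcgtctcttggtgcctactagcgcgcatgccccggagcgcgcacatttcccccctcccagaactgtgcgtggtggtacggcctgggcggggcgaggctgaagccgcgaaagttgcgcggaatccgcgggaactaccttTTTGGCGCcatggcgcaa
Chaf1b: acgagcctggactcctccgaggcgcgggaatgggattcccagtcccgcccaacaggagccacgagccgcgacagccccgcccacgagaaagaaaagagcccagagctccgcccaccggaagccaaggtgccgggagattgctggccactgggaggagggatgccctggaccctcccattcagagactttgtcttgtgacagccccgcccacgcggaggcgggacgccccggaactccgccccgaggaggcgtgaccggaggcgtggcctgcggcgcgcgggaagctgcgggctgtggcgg
The Topbp1 window holds TTTCGCGC on the minus strand, its leftmost base at position -129 from the start. In Cdt1 the match is TTTGGCGC on the plus strand from position 33, counted from 1 at the start. The Chaf1b window has neither motif. At least 1 E2F match was present for 14 of 31 members, or 45.2%, against 2.6% of 27025 genes with a promoter in the table. A CCAAT match was present for 20 members, or 64.5%, against 41.1% of genes, and the letters of both motifs overlapped in 1 member window. The median difference between groups was -0.38 for the 14 members with an E2F match and -0.29 for the 17 without. For CCAAT it was -0.31 for the 20 with a match and -0.38 for the 11 without, and neither split was tested. A match is a description of letters, and binding was not measured.

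Other genes of the replication program were taken from 5 further lists. In all, 90 of these 103 genes were lower in Ly86 tumors, 24 of them at an unadjusted p under 0.05, and 0 of 13 higher genes reached that level. Over all tested genes, 56.2% were lower and 4.97% were lower at that level. Their median difference was -0.25, and none passed the limma adjustment. Of 34 other origin and fork genes, 31 were lower with a median of -0.28, including Pold2, a polymerase delta subunit, at -0.40 (SE 0.12), the helicase gene Recql4 at -0.71 (SE 0.24) and Ticrr, which works with TOPBP1 at origins, at -0.43 (SE 0.15). All 12 other genes for copying chromatin were lower with a median of -0.28, among them Dnmt1, the methyltransferase that UHRF1 recruits, at -0.44 (SE 0.13), Ssrp1 at -0.35 (SE 0.11) and Hells at -0.41 (SE 0.17). Of 16 other genes for nucleotide supply, 13 were lower with a median of -0.29, with Gart at -0.48 (SE 0.12), Shmt1 at -0.43 (SE 0.14) and Impdh2 at -0.31 (SE 0.10). Samhd1, named here after its value was seen, breaks down deoxynucleotides and was the highest of that list at 0.73 (SE 0.41).

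The regulators of entry into S phase were less one-sided by count. Of 26 genes for G1/S control and E2F, 20 were lower (76.9%, against 56.2% of all tested genes) with a median of -0.15. Only 1 of them was lower at an unadjusted p under 0.05, where 4.97% of all tested genes were. E2f1, an activating E2F factor, stood at -0.34 (SE 0.11) and E2f8, a repressing one, at -0.42 (SE 0.19), while Rb1, which restrains E2F, stood at 0.39 (SE 0.19). Of 15 replication checkpoint genes 14 were lower with a median of -0.25, with Blm at -0.42 (SE 0.13), Rad9a at -0.35 (SE 0.13) and Wee1 at -0.32 (SE 0.13). In the list of mitosis genes all 22 were lower with a median of -0.29, close to the -0.33 of the replication members, with Aurkb at -0.42 (SE 0.12), Cdc20 at -0.43 (SE 0.14) and Kif20a at -0.40 (SE 0.14). The difference between the mitosis and replication lists was not tested.

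**Figure D4:**
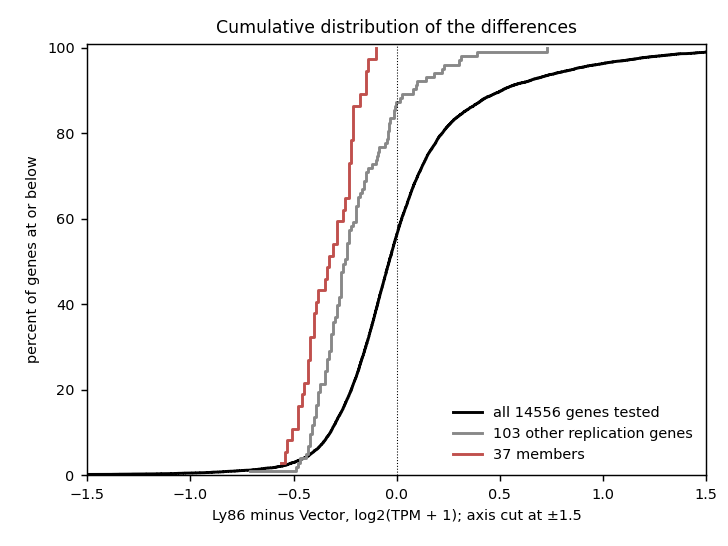
Percent of genes (y axis) with a Ly86 minus Vector difference at or below a value on the log2(TPM + 1) scale (x axis), for the 37 members, the 103 other replication genes and all 14556 tested genes. The members' curve reaches 100% before 0, where the curve of all genes stands at 56.2%.

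In 2 of the 3 divided tumors, the pieces differed for these genes by a median close in size to that between the groups. In Vector tumor 2, 34 of 37 members were lower in piece 1 than in piece 2, with a median of -0.30, from -0.92 for Chaf1a to 0.48 for Pola2. In the same comparison all 12 macrophage markers were higher in piece 1 with a median of 3.66, all 8 fibroblast markers were higher with a median of 5.35, and all 10 pigment markers were lower with a median of -0.98. In Ly86 tumor 1, 35 members were higher in piece 1 with a median of 0.29, up to 0.64 for Mcm3, and all 12 macrophage markers were lower in piece 1 with a median of -1.01, while the pigment markers had a median of -0.066. In Vector tumor 1, 29 members were lower in piece 1, with a median of -0.083, but 10081 of all 14556 tested genes were lower there as well, with a median of -0.13. In Vector tumor 2 and Ly86 tumor 1 the piece with more macrophage mRNA had less replication mRNA. Vector tumor 1 differed, since its piece 1 was lower for all 12 macrophage markers (median -0.59) and for most replication members. The pieces also differed in other lists. Skeletal muscle markers summed to 262 and 20.6 TPM in pieces 1 and 2 of Vector tumor 2. In Ly86 tumor 1 they summed to 22.3 and 911 TPM, and in Vector tumor 1 to 57.6 and 236 TPM. Keratinocyte markers summed to 663 and 0.78 TPM, 2419 and 109 TPM, and 5.51 and 24.6 TPM in the same order of tumors and pieces. A link between replication mRNA and any of these lists was not tested. The median over all tested genes was -0.0057 in Vector tumor 2 and 0.0096 in Ly86 tumor 1.

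Between the groups, markers of other cell types differed in level as well. The mean of the macrophage markers was 6.74 ± 0.22 log2(TPM + 1) (SD, n = 4) with Ly86 and 5.47 ± 1.07 (SD, n = 3) with the vector, and all 12 were higher in Ly86 tumors with a median difference of 1.28. All 8 fibroblast markers were higher with a median of 1.48, summing to 906 to 2620 TPM in Ly86 libraries and 97.1 to 4578 TPM in Vector libraries. The 9 tested markers of T and NK cells were higher with a median of 1.29, and the list summed to 80.7 to 174 TPM in Ly86 libraries and 7.64 to 270 TPM in Vector libraries. No marker of these 3 lists was at 0 in every library, and Ncr1, an NK cell receptor, was listed at 0 in piece 1 of Vector tumor 1. All 6 keratinocyte markers and all 6 skeletal muscle markers averaged lower in Ly86 tumors, with medians of -0.60 and -0.81, and 0 of either list reached an unadjusted p under 0.05. Keratinocyte markers summed to 1.02 to 2419 TPM in Ly86 libraries and 0.78 to 663 TPM in Vector libraries. Muscle markers summed to 3.65 to 911 TPM and 20.6 to 262 TPM. The highest sum of either list was thus in a Ly86 library, a piece of Ly86 tumor 1. The part of these cells in the difference of the replication genes was not tested. Pigment cell markers, by contrast, had a median difference of -0.011, with 5 of 10 lower, and means of 9.42 ± 0.29 (SD, n = 4) and 9.44 ± 0.22 (SD, n = 3). Ly86 tumor 2, with the highest pigment mean of 9.84, had the lowest replication mean of 5.57. Among the Vector tumors, tumor 2 was the lowest for both, at 9.19 for pigment and 5.75 for replication genes. Whether these means vary together was not tested.

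**Figure D5:**
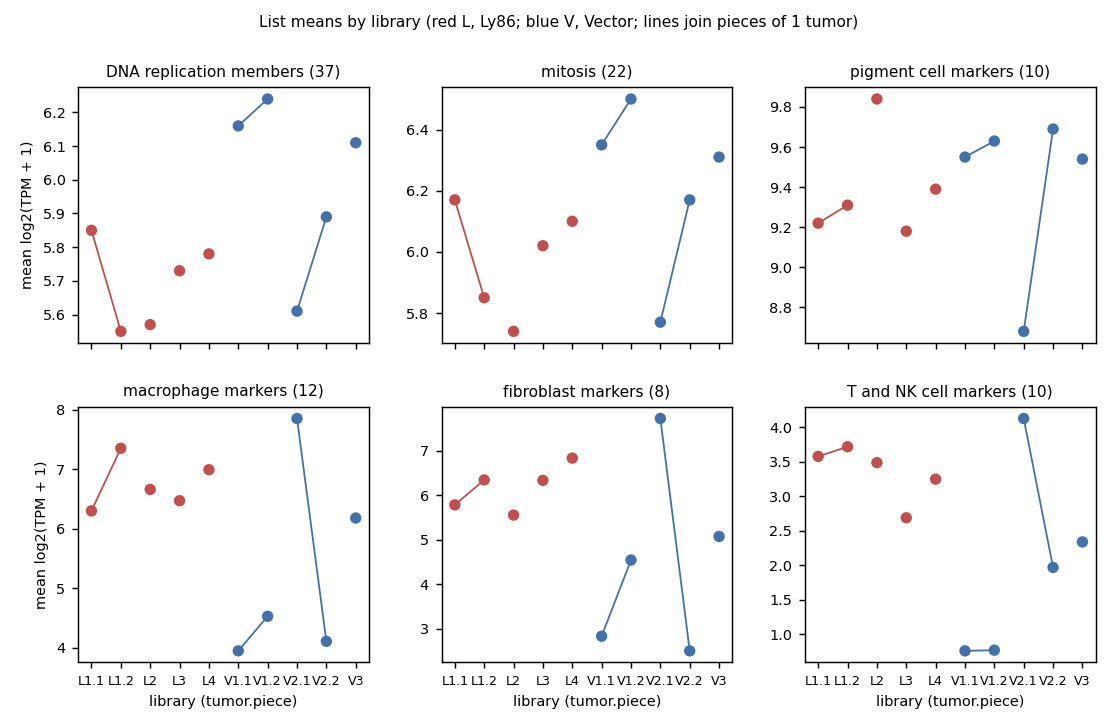
Mean log2(TPM + 1) of 6 gene lists (y axes, which differ and do not start at 0) in the 10 libraries (x axis, tumor and piece; L, Ly86 in red; V, Vector in blue); lines join the pieces of 1 tumor. Replication and mitosis genes both have their highest mean in piece 2 of Vector tumor 1, at 6.24 and 6.50, and piece 1 of Vector tumor 2 has the highest macrophage, fibroblast and T cell means and the lowest pigment mean.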

How the data were processed

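RNA was extracted from snap-frozen tumors with TRIzol and polyadenylated RNA was sequenced on a NovaSeq instrument, per the labels. The submitters' processing notes name STAR 2.7.10b, RSEM 1.3.3 and mm39. The authors deposited log2(TPM + 1) values. This scale was read from the values: 2 to the power of a value, minus 1, was a multiple of 0.01 for 99.9% of values (within 1e-04 hundredths), summing to 994679 to 996446 per library. Read depth is unknown, since TPM does not keep it, and no counting interval is given.

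Pieces of a tumor were averaged. Genes with a mean of at least 1 TPM over the tumors were fitted with limma 3.58.1 (lmFit, eBayes with trend) in R 4.3.3, with no covariates and Benjamini-Hochberg adjustment at 0.05. Differences are Ly86 minus Vector, with 95% intervals, and understate changes of low genes. The rule for the members uses symbols only, but the members, the lists, the tests and the 22 alternatives were chosen with earlier results of these data known. Values by library were given for the 12 members with the smallest p and the 3 with the largest, and of each other pathway list the 3 genes with the smallest p were named with their difference. The alternatives changed the pseudocount, the filter, the scaling, the genes in the total, the pieces used, the variance model or the weights, added the tumor number as a block, or left out 1 tumor.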

Additional observations from a re-analysis of the deposited data

Results flagged for a closer look

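Pole, the catalytic subunit of polymerase epsilon, was at 3.55 log2(TPM + 1) in Ly86 tumor 3, apart from the other Ly86 tumors at 4.05 to 4.13. The gap was 0.856 of the group's range, above the 0.829 allowed for 4 samples by Dixon's criterion. It was the only one of 38 values examined in this way (37 members and their mean), and chance alone marks about 1 in 20. The 3 Vector tumors are too few for this check.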

How the results depend on the processing

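Over the 22 alternatives, 34 of the 37 members stayed below 0 in every one. Gins2 was at 0.0081 with array weights, Gins3 at 0.14 without Vector tumor 1, and Rfc4 at 0.015 without Ly86 tumor 2 and 0.026 without Vector tumor 1. Without Vector tumor 2, Gins3 was at -0.46 and Rfc4 at -0.27, their lowest values on leaving out a tumor. No member passed an adjusted p of 0.05 in any alternative other than array weights, where 27 did. The number of genes passing over the whole table, 0 of 14556 with 1565 at an unadjusted p under 0.05, became 1 with only piece 1 of each divided tumor, 6 with only piece 2, 1 without piece 1 of Vector tumor 2, 1832 with array weights, and 0 to 2 on leaving out each tumor. The 18 members lower at an unadjusted p under 0.05 became 6 with only piece 1 and 33 with array weights, and 7 to 32 on leaving out each tumor, while the share of all tested genes went from 4.97% to 1.32%, 21.2%, and 1.72% to 9.23%. The 12 members with no overlap became 4 with only piece 1, 20 with only piece 2, 21 without piece 1 of Vector tumor 2, and 12 to 33 on leaving out each tumor. On leaving out a tumor such a count can only stay or rise. The share of all tested genes went from 5.75% to 1.95%, 12.5%, 10.4%, and 6.97% to 19.2% in these settings. The causes of these shifts were not tested.

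With the tumor number as a replicate block, 14 members were lower at an unadjusted p under 0.05, beside 1.95% of all tested genes. In either direction 645 genes reached that level, with 0 passing the adjustment. The deviations of same-numbered tumors correlated at -0.172, -0.11 and -0.308 over genes, and those of other pairs at -0.218 to 0.354. Deviations were taken from group means of only 4 and 3 tumors, so these values cannot settle whether the numbers pair the tumors. Read depth is unknown, so its limit on low members such as Orc1 could not be given.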
